A study of Mus musculus with 144 samples.

Results

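The livers of female C3H/HeJ mice were compared between an atherogenic diet and regular chow. The samples were chosen by their titles and labels, which give strain, sex and diet: 3 mice on the atherogenic diet and 3 on chow, 1 array each, 6 of the 120 arrays of the 10 strains harvested at the same age. The chow contained 6% fat and the atherogenic diet 30% fat plus cholic acid, which promotes the absorption of lipids from the gut. All 6 mice were of the inbred C3H/HeJ strain, for which the labels name no other allele or agent, and their livers were harvested at 11 to 13 weeks of age. The time on the diet is not given in the sources used here. For comparison there were 6 C3H/HeJ males, also 3 on each diet, and 54 females, 3 on each diet, of the other 9 strains harvested at the same age: A/J, 129S1/SvImJ, DBA/2J, BALB/cJ, C57BL/6J, SM/J, I/LnJ, NZB/BINJ and MRL/MpJ-Tnfrsf6lpr/J, the last with the lpr allele. The other 2 of the 12 strains were harvested after 50 weeks and entered only an alternative fit over all arrays of the series. Whole liver was taken, so every value is a mixture over liver cell types.

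The liver makes cholesterol through the mevalonate pathway, takes it up from lipoproteins, and disposes of it as bile acids or by secretion into bile. When sterols accumulate, the membrane protein SCAP no longer escorts the transcription factor SREBP2 to its activation, and transcription of the synthesis enzymes falls, whereas oxidised sterols activate the nuclear receptor LXR, which raises sterol exporters. Bile acids act through the receptor FXR, which lowers their own synthesis. C3H/HeJ is an inbred strain known for a defective allele of Tlr4, the receptor for bacterial lipopolysaccharide, and for its resistance to diet-induced lesions of the aorta relative to C57BL/6J.

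Values are log2 intensities per probe set, so a difference of 1 is a 2-fold difference, and levels of different genes cannot be compared. The 6 arrays had medians of 5.02 to 5.06 and correlated at 0.9938 or more within a diet. Xist, made from the inactive X chromosome of females, was at 11.12 or above in all females and at 6.32 or below in all males of the 10 strains, without overlap. Alb and Ttr, which encode the main secreted proteins of hepatocytes, stood at 14.48 to 14.61 and near 14.3 on the 6 arrays, and of 18 hepatocyte markers 0 passed the test in limma (1 higher and 1 lower at an unadjusted p under 0.05), with a median change of -0.01. The number of arrays limits the precision.

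Of 45037 probe sets 516 (1.15%) passed an adjusted p of 0.05 in limma. Of the 18193 genes they measure, 303 passed at the same threshold, which is 1.67% of them. Of these 220 rose on the atherogenic diet (1.21%) and 83 fell (0.456%), and 78 (0.429%) differed at least 2-fold, 50 of them higher and 28 lower. At an unadjusted p under 0.05 there were 2402 genes (13.2%), and the median change of all genes was 0.002. In 295 of the 303 the atherogenic arrays did not overlap the chow arrays, against 12.4% of all genes with the 3 atherogenic arrays above the 3 chow arrays and 8.64% with them below. Rises made up 72.6% of the calls. After quantile normalization of the arrays the calls were 148 rises and 101 falls, 59.4% rises. The number of calls was lower whichever array was left out: it was 133 without chow replicate 1, 182 without chow replicate 3, 152 without atherogenic replicate 2 and 194 without atherogenic replicate 3, against 230 without chow replicate 2 and 202 without atherogenic replicate 1.

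Genes of cholesterol synthesis fell together. Of 22 measured genes of cholesterol synthesis and uptake, 17 fell and 0 rose, against 0.456% and 1.21% of all genes. All 22 had a lower mean on the atherogenic diet, and the median change was -1.20 against 0.002 over all genes. In 21 of the 22 the 3 atherogenic arrays lay below the 3 chow arrays. The mean level of the 22 genes was 9.71, 9.95 and 9.98 in chow replicates 1 to 3, and 8.27, 8.37 and 8.49 in atherogenic replicates 1 to 3.

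Sqle, which encodes squalene epoxidase, the enzyme that adds the first oxygen on the way to the sterol rings, changed most among the 303 genes that passed the test. Its values were 9.65, 9.91 and 9.85 on chow (replicates 1 to 3, the order used throughout) and 5.31, 5.33 and 5.07 on the atherogenic diet. Each diet's arrays agreed within 0.26, and the fall was 4.57 on the log2 scale, or 23.7-fold (SE 0.39, limma adjusted p = 3.1e-15). In the females of the other 9 strains Sqle fell by 0.88 (BALB/cJ) to 4.99 (I/LnJ).

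The early steps of the pathway, through mevalonate to the isoprenoid units, fell. Hmgcs1, the synthase that makes the precursor of mevalonate, stood at 11.49, 11.92 and 11.63 on chow and at 9.20, 9.71 and 9.67 on the atherogenic diet, a fall of 2.15 (SE 0.32, adjusted p = 4.0e-06). Mvd, the mevalonate diphosphate decarboxylase, fell by 1.61 (SE 0.34, adjusted p = 0.00212), with 1 of its chow arrays (7.19) below the other two (7.96 and 8.03) but above all atherogenic arrays (6.03 to 6.21). Idi1, which isomerises the first 5-carbon isoprenoid unit, stood at 10.23, 10.67 and 10.86 against 7.88, 8.14 and 8.45, and Fdps, which joins these units into farnesyl diphosphate, at 11.12, 11.52 and 11.65 against 8.79, 9.07 and 9.67. These groups did not overlap, and the changes were -2.43 (SE 0.37, adjusted p = 7.2e-06) and -2.25 (SE 0.40, adjusted p = 1.2e-04). The kinases Mvk (-0.87) and Pmvk (-1.13) and the squalene synthase Fdft1 (-0.96) also passed, with adjusted p of 0.0219, 0.00668 and 0.0207. Their calls did not hold with every array left out. With each of the 6 arrays left out in turn Fdft1 ranged from -1.01 to -0.87 and passed in none of the 6, Mvk ranged from -0.94 to -0.81 and passed only without atherogenic replicate 3, and Pmvk ranged from -1.35 to -1.01 and did not pass without chow replicate 2, chow replicate 3 or atherogenic replicate 2.

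The enzymes after the closing of the sterol ring fell as well. Cyp51, the lanosterol demethylase, went from 9.11, 9.63 and 9.52 to 6.79, 6.11 and 6.63, a change of -2.91 (SE 0.30, adjusted p = 2.1e-11), and Msmo1, the methylsterol oxidase, from 11.06, 11.18 and 10.96 to 7.88, 8.32 and 8.58, a change of -2.81 (SE 0.33, adjusted p = 2.8e-09). Nsdhl, which removes the carbon that Msmo1 oxidises, went from 10.60, 10.80 and 10.91 to 8.46, 8.38 and 8.47, a change of -2.33 with the 3 atherogenic arrays within 0.09 of each other (SE 0.29, adjusted p = 1.2e-08). All these arrays were apart between the diets. Dhcr7, which makes the last reduction to cholesterol, fell by 1.70 (SE 0.29), Lss, the lanosterol synthase, by 1.43 (SE 0.25), the sterol reductase Tm7sf2 by 1.26 (SE 0.23) and the ketosteroid reductase Hsd17b7 by 0.93 (SE 0.19). The sterol isomerase Ebp (-0.30, adjusted p = 0.122) and the desaturase Sc5d (-0.65, adjusted p = 0.0613) did not pass the test, although their arrays did not overlap. A dimmer probe set of Sc5d fell (-0.85, SE 0.20, adjusted p = 0.012).

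Among the regulators of the pathway, Scap fell. Its values were 10.84, 11.01 and 10.91 on chow and 10.49, 10.26 and 10.10 on the atherogenic diet, a fall of 0.64 with no overlap (SE 0.10, adjusted p = 1.6e-05). Srebf2, which encodes SREBP2, had a change of -0.38 (SE 0.12, adjusted p = 0.135) on the probe set that represents it here. A dimmer probe set of Srebf2 fell from a mean of 6.54 to 5.51 (-1.04, SE 0.16, adjusted p = 1.0e-05), so the probe sets disagree on the call. Insig1, which retains SCAP in the endoplasmic reticulum, had a change of -0.84 (SE 0.35, adjusted p = 0.329), with atherogenic values that ran from 9 to 9.82. Stard4, a carrier of sterols between membranes, fell by 0.91 (adjusted p = 0.0286), but ranged from -1.07 to -0.65 with each array left out and did not pass without any of the chow arrays or atherogenic replicate 1. Npc1l1, a sterol importer known from the gut, was at 4.68 to 4.77 on chow and 4.48 to 4.72 on the atherogenic diet. These levels lay below the array medians of 5.02 to 5.06, where little fall can be measured. The plot of the 22 genes shows that the falls differ in size more than the arrays of a diet differ from each other.

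**Figure D1:**
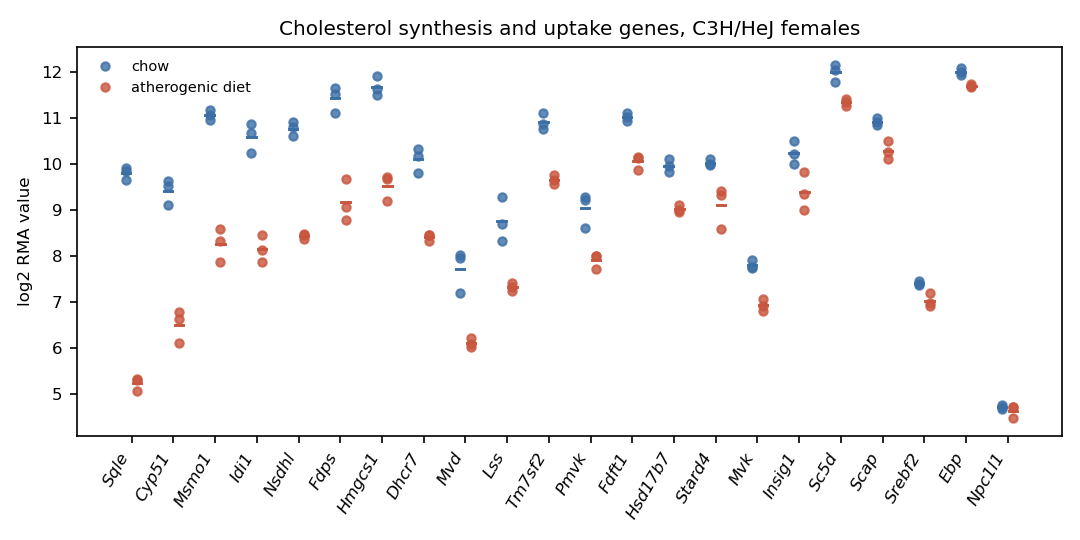
The log2 RMA value of each of the 22 measured genes of cholesterol synthesis and uptake on the 6 arrays of C3H/HeJ females, chow in blue and atherogenic diet in red, with a bar at the mean of 3 arrays and genes ordered by the size of the fall. Sqle, at the left, fell by 4.57, and Npc1l1, at the right, is the 1 gene whose arrays overlap between the diets.

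The promoters of these genes are shown because the list moved in 1 direction. RefSeq start sites (GRCm38.p6) were matched for 18 of the 22 genes, and the 250 bases before each of their 22 start sites were searched on both strands for TCACNCCAC, a form of the sterol regulatory element bound by SREBP, and for CCAAT, the box bound by NF-Y. The first was found in 1 of the 22 promoters (4.55%), that of Hmgcs1, against 1.05% of all 32851 promoters in the table. CCAAT was found in 17 of the 22 (77.3%) against 33.8% of all promoters. Of the 18 genes 17 had it before at least 1 start site. No share per gene was computed over all genes, so this second count has no background beside it. Ebp, Npc1l1, Sc5d, Insig1 and Srebf2, whose representing probe sets did not pass the test, held CCAAT too. Scap, which fell, held none before either of its start sites. A match is a description of the letters and no evidence of binding, and other forms of the sterol element were not searched. The 4 promoters below belong to genes that fell by more than 2 on the log2 scale and are written 5′ to 3′ on the gene's strand with CCAAT, its reverse complement and TCACNCCAC in capitals.
Hmgcs1: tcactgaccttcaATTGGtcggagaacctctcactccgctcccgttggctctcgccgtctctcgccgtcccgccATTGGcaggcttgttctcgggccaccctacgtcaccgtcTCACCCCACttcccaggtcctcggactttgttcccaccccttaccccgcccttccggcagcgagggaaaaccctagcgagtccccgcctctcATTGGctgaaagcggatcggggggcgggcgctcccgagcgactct
Idi1: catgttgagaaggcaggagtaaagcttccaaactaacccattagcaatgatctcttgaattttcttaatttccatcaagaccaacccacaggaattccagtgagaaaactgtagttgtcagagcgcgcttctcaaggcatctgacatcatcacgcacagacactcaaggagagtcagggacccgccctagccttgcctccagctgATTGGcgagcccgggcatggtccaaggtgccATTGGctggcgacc
Cyp51: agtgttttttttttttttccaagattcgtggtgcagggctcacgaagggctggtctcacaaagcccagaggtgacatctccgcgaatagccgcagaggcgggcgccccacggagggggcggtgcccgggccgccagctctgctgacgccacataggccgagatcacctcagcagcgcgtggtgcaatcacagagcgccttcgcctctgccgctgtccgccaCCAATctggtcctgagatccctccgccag
Msmo1: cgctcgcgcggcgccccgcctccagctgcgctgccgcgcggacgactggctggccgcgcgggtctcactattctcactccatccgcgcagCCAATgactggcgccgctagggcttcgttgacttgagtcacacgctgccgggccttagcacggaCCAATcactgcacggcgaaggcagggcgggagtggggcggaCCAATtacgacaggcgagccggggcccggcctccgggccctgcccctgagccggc
They lie at chr13:119690101-119690350 (plus strand), chr13:8885356-8885605 (plus strand), chr5:4104698-4104947 (minus strand) and chr8:64733579-64733828 (minus strand). Hmgcs1 holds the sterol element with its first base 137 bases before the start site and 3 CCAAT boxes, all read on the opposite strand. Idi1 holds 2 boxes on the opposite strand, Cyp51 holds 1 on the gene's strand, and Msmo1 holds 3 on the gene's strand.

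Targets of LXR rose. Of 12 measured, 7 passed the test, all higher, against 1.21% of all genes, and 0 fell. All 12 had a positive change, and the median was 0.67 against 0.002 over all genes. Abcg5 and Abcg8, which form the pump that secretes sterols into bile, led the list. Abcg5 stood at 10.41, 10.67 and 9.99 on chow and at 12.21, 12.14 and 12.23 on the atherogenic diet, a rise of 1.83 or 3.56-fold (SE 0.15, adjusted p = 8.8e-17), and Abcg8 at 8.99, 9.37 and 8.70 against 10.76, 10.56 and 10.79, a rise of 1.69 (SE 0.17, adjusted p = 1.8e-11). In both genes the atherogenic arrays lay closer together than the chow arrays, of which replicate 3 was lowest, and the diets did not overlap. These 2 genes lie side by side in opposite directions in the genome.

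Lpl, lipoprotein lipase, an enzyme that adult liver normally makes little of, rose by 1.60, from 10.02, 10.24 and 9.79 to 11.97, 11.43 and 11.45 (SE 0.27, adjusted p = 4.7e-05). Abcg1, an exporter of cholesterol to high-density lipoprotein, rose by 1.36, from 7.08, 7.05 and 6.82 to 8.67, 8.23 and 8.15 (SE 0.20, adjusted p = 1.7e-06), and Rnf145, a ubiquitin ligase that responds to sterols, by 0.81 (SE 0.16, adjusted p = 7.5e-04). These 5 calls held with each of the 6 arrays left out in turn. Srebf1, which encodes the lipogenic factor SREBP1, rose by 1.03 (adjusted p = 0.0116) and Abca1, the exporter that forms nascent high-density lipoprotein, by 0.37 (adjusted p = 0.0325), but neither call held with every array left out. Srebf1 ranged from 0.95 to 1.17 and did not pass without chow replicates 1 or 3 or atherogenic replicates 2 or 3, and Abca1 ranged from 0.33 to 0.41 and passed only without chow replicate 3. Nr1h3, which encodes LXR alpha, had a change of 0.12 (adjusted p = 0.716).

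Of 15 measured genes of bile acid synthesis 2 rose and 1 fell, against 1.21% and 0.456% of all genes, with a median of -0.03. Cyp7a1, the rate-limiting enzyme of the classic route, was at 10.98, 11.09 and 9.89 on chow and at 10.33, 10.53 and 9.84 on the atherogenic diet (-0.42, SE 0.60, adjusted p = 0.884), with replicate 3 the lowest in both groups and the groups overlapping. Cyp8b1, which sets the proportion of cholic acid, was at 11.40, 11.47 and 10.95 against 10.42, 9.77 and 9.74 without overlap, a change of -1.30 that did not pass (SE 0.37, adjusted p = 0.0575). In the females of the other 9 strains its change ran from -4.26 (C57BL/6J) to -0.96 (BALB/cJ). Cyp27a1, which opens the alternative route in mitochondria, fell by 0.46 (SE 0.10, adjusted p = 0.00584), and Scp2, a sterol carrier and thiolase of peroxisomes, rose by 0.21 (SE 0.05, adjusted p = 0.00724). Cyp27a1 did not pass without chow replicate 2 or atherogenic replicate 3 (range -0.54 to -0.38), and Scp2 not without chow replicate 3 (range 0.20 to 0.23). Cyp46a1, the cholesterol 24-hydroxylase known from neurons, rose by 1.05 and is described with the strain comparison.

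Of 20 genes of bile acid sensing and transport 1 rose and 1 fell, against 1.21% and 0.456% of all genes, with a median of 0.03. Abcb1a, a multidrug exporter, rose from 6.37, 6.51 and 6.47 to 7.54, 7.69 and 7.50 (1.13, SE 0.24, adjusted p = 0.00243), with no overlap. Slco1a1, an organic anion importer, fell from 10.06, 9.43 and 10.21 to 8.16, 7.53 and 7.99 (-2.01, SE 0.56, adjusted p = 0.0494), a call that ended whichever of the 6 arrays was left out (range -2.25 to -1.83, adjusted p 0.061 to 0.238). Nr0b2, which encodes the FXR target SHP, was at 8.78, 8.76 and 9.03 against 8.59, 8.89 and 9.88 (0.27, adjusted p = 0.854), and its groups overlapped. The bile salt export pump Abcb11 had a change of 0.05 (SE 0.13, adjusted p = 0.952) and the importer Slc10a1 of -0.25 (SE 0.10, adjusted p = 0.277).

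Genes of fatty acid synthesis and oxidation gave 1 call in the main fit. Of 24 genes of fatty acid synthesis and desaturation 1 rose, against 1.21% of all genes. Scd2, a desaturase, rose from 4.66, 4.68 and 4.33 to 5.90, 5.78 and 5.86 (1.29, SE 0.22, adjusted p = 5.1e-05). Scd1, the main hepatic desaturase, was at 13.46 to 13.75 on chow and 14.15 to 14.17 on the atherogenic diet, a change of 0.54 that did not pass (SE 0.25, adjusted p = 0.400). The other probe set of Scd1 rose from a mean of 10.60 to 12.15 (1.55, SE 0.42, adjusted p = 0.0424), so the probe sets disagree on the call and on the size.  Of 24 genes of fatty acid oxidation and PPARA targets 0 passed in limma, with 2 higher and 2 lower at an unadjusted p under 0.05 and a median of 0.02.

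Of 20 lipid droplet and storage genes 4 rose, against 1.21% of all genes, although the median was -0.07. Cd36, a fatty acid and lipoprotein receptor, rose from 7.87, 8.06 and 8.32 to 9.35, 9.46 and 9.54, or 2.58-fold (1.37, SE 0.23, adjusted p = 6.1e-05), and Fabp2, a fatty acid binding protein, from 11.07, 10.95 and 11.16 to 11.80, 12.19 and 12.24 (1.02, SE 0.15, adjusted p = 2.3e-06). The diets did not overlap in either gene. Hsd17b13, an enzyme on lipid droplets, rose by 0.56 (adjusted p = 0.00259) and the droplet coat gene Plin3 by 0.46 (adjusted p = 0.0425). A second probe set of Hsd17b13, brighter in C3H/HeJ, did not pass (0.33, adjusted p = 0.0994). The call of Hsd17b13 ended without chow replicate 1 (0.42, adjusted p = 0.149) and that of Plin3 whichever of the 6 arrays was left out (range 0.44 to 0.50). Apoc2, the cofactor of lipoprotein lipase, was the 1 gene called among 21 of apolipoproteins and lipoprotein handling, against 1.21% of all genes with a called rise. It rose by 0.52 (SE 0.11, adjusted p = 0.00146), and its call ended without chow replicate 3 (0.43, adjusted p = 0.0505). Apoa4 had a change of 0.70 (adjusted p = 0.125) and Vldlr of 1.01 (adjusted p = 0.0696), both without overlap.

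Markers of macrophages and Kupffer cells, the resident macrophages of the liver, were mostly higher. The test was passed by 5 of 33, all as rises, against 1.21% of all genes. Of the 33, 31 had a positive change, 20 were higher and 1 lower at an unadjusted p under 0.05, against 8.03% and 5.18% of all genes, and the median was 0.58. The mean level of the 33 genes was 7.51, 7.68 and 7.42 on chow and 8.30, 8.14 and 7.98 on the atherogenic diet, without overlap. In bulk liver, more cells of a type and more RNA per cell cannot be told apart. Without chow replicate 3 or without atherogenic replicate 1 the called number was 3, and it was 4 to 6 without any other array. The count also moved with the other arrays in the fit, which only set the spread: it was 9 without the 6 SM/J male arrays or with all arrays of the series, and 12 with the 60 female arrays or with the 6 C3H/HeJ female arrays alone. With array quality weights 12 rose and 1 fell.

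Lgals3, galectin-3, a lectin of activated macrophages, rose from 7.28, 7.22 and 6.96 to 8.96, 9.05 and 8.99 (1.84, SE 0.35, adjusted p = 5.4e-04). Mpeg1, the pore-forming perforin-2, rose from 8.66, 8.77 and 8.82 to 10.26, 10.20 and 9.89 (1.37, SE 0.29, adjusted p = 0.00223), and Cd5l, a secreted macrophage protein regulated by LXR, from 9.88, 9.97 and 9.65 to 11.19, 10.98 and 10.89 (1.19, SE 0.22, adjusted p = 4.3e-04). All 3 were apart between the diets and held with each array left out. Laptm5, a lysosomal membrane protein (1.20, adjusted p = 0.016), and Fcgr1, the high-affinity receptor for immunoglobulin G (1.06, adjusted p = 0.0125), did not hold. The next brightest probe sets of Laptm5 had changes of 0.30 (adjusted p = 0.666) and 0.56 (adjusted p = 0.0913), neither of which passed, and a dimmer probe set of Fcgr1 one of -0.09 (adjusted p = 0.873). Laptm5 ranged from 1.11 to 1.29 and did not pass without chow replicates 1 or 3 or atherogenic replicates 1 or 3, and Fcgr1 ranged from 0.72 to 1.27 and did not pass without chow replicate 3 or atherogenic replicate 1.

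Several surface markers of macrophages had smaller changes than the 5 called genes, though Clec4f and Gpnmb lay above the list median of 0.58. Cd14 (1.03) and Cd68, given elsewhere, had larger changes than Clec4f and Gpnmb. Adgre1, which encodes F4/80, was at 7.34, 7.31 and 7.15 against 7.84, 7.47 and 7.31 with overlap (0.27, adjusted p = 0.774), Csf1r at 0.29 (adjusted p = 0.693), and the Kupffer cell lectin Clec4f at 9.38, 9.69 and 9.26 against 10.29, 10.14 and 9.94 without overlap (0.68, adjusted p = 0.0574). Gpnmb and Trem2, which mark lipid-loaded macrophages, had changes of 0.65 (adjusted p = 0.418) and 0.25 (adjusted p = 0.699). Cd163, a haemoglobin scavenger receptor, was lower on every atherogenic array (6.53, 6.43 and 6.27 against 6.03, 5.36 and 5.04), a change of -0.93 that did not pass (SE 0.34, adjusted p = 0.221).

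Outside that list, Mmp12, the macrophage elastase, rose from 4.42, 4.40 and 4.09 to 5.99, 6.19 and 6.85 (2.04, SE 0.37, adjusted p = 1.7e-04), and Clec7a, the beta-glucan receptor dectin-1, from 6.58, 6.61 and 6.60 to 8.22, 8.71 and 8.79 (1.98, SE 0.34, adjusted p = 6.5e-05). Both were apart between the diets and held with each array left out. Ccl6, a chemokine of myeloid cells, was the 1 gene called among 28 chemokines and inflammation genes, against 1.21% of all genes with a called rise. It was at 6.95, 7.17 and 7.03 against 8.32, 8.54 and 8.53 (1.41, SE 0.31, adjusted p = 0.00397). The genes of MHC class II presentation were also among the 15 largest rises: H2-Aa (7.50, 7.96 and 7.60 against 9.60, 9.32 and 9.12), H2-Ab1 (6.38, 6.79 and 6.61 against 8.46, 8.12 and 7.92) and the invariant chain Cd74 (8.18, 8.53 and 8.10 against 9.89, 9.74 and 9.62). Their rises were 1.66 (SE 0.43, adjusted p = 0.0264), 1.57 (SE 0.43, adjusted p = 0.0455) and 1.48 (SE 0.39, adjusted p = 0.0307), and no arrays overlapped. H2-Aa and Cd74 passed only without chow replicate 2 (ranges 1.53 to 1.80 and 1.4 to 1.61 over the 6 omissions), and H2-Ab1 passed in none (1.43 to 1.70).

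The acute phase and the Tlr4 pathway gave no calls in the main fit. Of 24 acute phase genes, whose products the liver secretes in inflammation, 0 passed in limma, with a median of 0.03. At an unadjusted p under 0.05, 5 were higher and 1 lower, against 8.03% and 5.18% of all genes. In 8 all atherogenic arrays lay above all chow arrays and in 2 below, against 12.4% and 8.64% of all genes. With the 6 C3H/HeJ female arrays fitted alone 3 rose and 1 fell, and with the 60 female arrays or array quality weights 1 rose. Saa1 was at 11.05, 9.22 and 8.09 on chow and 10.39, 10.46 and 10.63 on the atherogenic diet, so the spread of the chow mice spanned the atherogenic arrays (1.04, SE 0.61, adjusted p = 0.565). Saa3 was at 6.70 to 6.81 against 7.92 to 8.42 (1.41, SE 0.52, adjusted p = 0.229) and Lcn2 at 8.33, 7.10 and 7.18 against 9.51, 9.37 and 8.80 (1.69, SE 0.67, adjusted p = 0.271), both apart between the diets.

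Of 23 genes of the Tlr4 pathway and NF-kB feedback 0 passed, with a median of 0.14. At an unadjusted p under 0.05, 3 were higher and 0 lower, against 8.03% and 5.18% of all genes. With the 6 C3H/HeJ female arrays or the 60 female arrays fitted alone 1 rose. Tlr4 itself was at 5.77, 5.72 and 5.74 against 5.92, 5.92 and 6.08 (0.23, SE 0.16, adjusted p = 0.649), its co-receptor gene Cd14 at 6.21, 6.66 and 6.19 against 7.81, 7.43 and 6.92 (1.03, SE 0.40, adjusted p = 0.268), and the feedback inhibitor Nfkbia at 10.95, 11.16 and 10.86 against 11.15, 11.04 and 11.22 (0.14, adjusted p = 0.821). The first 2 genes were apart between the diets and the third was not. Over the other 9 strains' females the median of the pathway ran from 0.04 to 0.52, and that of C3H/HeJ lay within this range. In limma 0 of its genes differed in response between C3H/HeJ and the mean of those strains (1 higher and 0 lower at an unadjusted p under 0.05).

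All 26 interferon response genes had a positive change, with a median of 0.39. Of them 4 passed, against 1.21% of all genes with a called rise: Ifit2 (1.44, adjusted p = 0.0101), Oasl2 (1.13, adjusted p = 0.0323), Oas1a (0.93, adjusted p = 0.0156) and Bst2 (0.85, adjusted p = 0.00873). The mean level of the 26 was 7.46, 7.66 and 7.43 on chow and 8.18, 8.10 and 7.81 on the atherogenic diet. The count varied with the arrays: it was 0 without chow replicate 1, 1 without chow replicate 3, atherogenic replicate 1 or atherogenic replicate 2, 3 without chow replicate 2 and 5 without atherogenic replicate 3. With the 6 C3H/HeJ female arrays fitted alone it was 8. Bst2 ended without chow replicate 1 or atherogenic replicate 2 (range 0.79 to 0.91), Ifit2 without chow replicates 1 or 3 or atherogenic replicate 1 (1.20 to 1.67), Oasl2 without those or atherogenic replicate 2 (0.94 to 1.35), and Oas1a without any but atherogenic replicate 3 (0.80 to 1.10).

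The next lists, of markers of other cell types, had 0 or 1 call each in the main fit. Of 28 matrix and stellate cell genes the 1 called was Mmp12, against 1.21% of all genes with a called rise. Of the 28, 24 had a positive change, with a median of 0.37. At an unadjusted p under 0.05, 11 were higher and 0 lower, against 8.03% and 5.18% of all genes. In 15 all atherogenic arrays lay above all chow arrays, against 12.4% of all genes. Calls numbered 5 with array quality weights and 6 with the 6 C3H/HeJ female arrays alone. Col3a1 was at 8.61, 8.89 and 9.17 against 9.49, 9.95 and 9.89 (0.89, SE 0.34, adjusted p = 0.263). Of 22 lymphocyte markers 0 passed in limma (0 higher and 1 lower at an unadjusted p under 0.05). Stab2, a scavenger receptor of sinusoidal endothelium, was the 1 called among 16 endothelial markers (0.73, limma adjusted p = 0.0099). Its call ended without chow replicate 3 or atherogenic replicate 2 (range 0.67 to 0.80). Of the 16, 14 had a positive change. At an unadjusted p under 0.05, 6 were higher and 0 lower, against 8.03% and 5.18% of all genes. Of 29 proliferation genes 0 passed, with 2 higher and 0 lower at an unadjusted p under 0.05. Of the 29, 23 had a positive change. In 9 all atherogenic arrays lay above all chow arrays, against 12.4% of all genes, and in 0 below. With the 6 C3H/HeJ female arrays alone 3 rose.

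S100a8, a calcium-binding protein of neutrophils, rose by 1.79 (SE 0.45, adjusted p = 0.0201), with widely spread mice: 6.24, 6.22 and 5.2 on chow and 8.85, 7.75 and 6.43 on the atherogenic diet. Its partner S100a9 followed the same order, at 6.10, 5.96 and 5.01 against 8.31, 7.27 and 6.03 (1.51, adjusted p = 0.0531), and its groups overlapped. S100a8 did not pass without chow replicate 3, atherogenic replicate 1 or atherogenic replicate 2 (range 1.20 to 2.41), and S100a9 passed without atherogenic replicate 3 (2.10, adjusted p = 0.0057). S100a8 was the 1 of 13 neutrophil markers that passed, against 1.21% of all genes with a called rise.

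The largest rise among genes with arrays apart was that of Lepr, the leptin receptor, whose soluble form the liver secretes. It stood at 5.51, 5.41 and 5.21 on chow and at 8.15, 7.38 and 7.54 on the atherogenic diet, a rise of 2.31 or 4.97-fold (SE 0.35, adjusted p = 3.8e-06). Another pair of its probe sets rose by 3.48 (SE 0.57) and 3.82 (SE 0.49), and 1 more, at 4 on chow, did not change beyond its error (0.10, SE 0.13). Lepr is among 23 measured genes known to be higher in female liver. Of these 2 rose and 1 fell, against 1.21% and 0.456% of all genes, with a median of -0.13. Ntrk2, a neurotrophin receptor, rose from 7.08, 7.05 and 7.04 to 7.66, 7.99 and 8.10 (0.86, SE 0.17, adjusted p = 0.00125). Sult3a1, a sulfotransferase, fell from 12.01, 11.52 and 12.15 to 8.87, 9.17 and 7.64, or 10.1-fold (-3.33, SE 0.40, adjusted p = 4.1e-09).

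Of 21 genes known to be higher in male liver 3 fell and 0 rose, against 0.456% and 1.21% of all genes. Cyp2f2, a cytochrome P450 of lung and liver, fell from 13.02, 13.17 and 13.07 to 12.49, 12.24 and 11.85 (-0.89, SE 0.16, adjusted p = 9.5e-05), which held with each array left out. The others were Slco1a1, given above, and Hsd3b5, a steroid dehydrogenase, at 8.59, 7.67 and 9.28 against 6.20, 6.03 and 6.59 (-2.24, SE 0.63, adjusted p = 0.0498), which passed only without chow replicate 2 (range -2.66 to -1.86). Slco1a1 passed in none of the 6 omissions (range -2.25 to -1.83).

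Major urinary proteins are pheromone carriers secreted by the liver. Of 6 measured members of their group, which includes other secreted lipocalins, 2 fell, against 0.456% of all genes. Mup10 went from 9.88, 9.50 and 9.50 to 6.67, 6.09 and 4.96, a fall of 3.72 or 13.2-fold (SE 0.54, adjusted p = 2.2e-06), and Mup5 from 5.87, 5.90 and 6.12 to 5.34, 4.36 and 4.21, a fall of 1.32 (SE 0.23, adjusted p = 7.3e-05). Both groups were apart. Mup3 was at 13.32, 13.20 and 13.50 against 12.83, 13.16 and 13.43 (-0.20, SE 0.29, adjusted p = 0.890). The family members are near-identical in sequence, so a probe set can read several of them.

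Krt23, a keratin that hepatocytes make under stress, rose from 5.79, 5.87 and 5.49 to 6.92, 7.55 and 8.51 (1.94, SE 0.33, adjusted p = 5.1e-05). It was the 1 gene called among 12 cholangiocyte markers, against 1.21% of all genes with a called rise. The bile duct keratins Krt7 (0.04, adjusted p = 0.944) and Krt19 (0.13, adjusted p = 0.840) overlapped between the diets. Adam11, a membrane protein without protease activity, rose from 6.37, 6.39 and 6.16 to 8.27, 8.21 and 8.20 (1.92, SE 0.18, adjusted p = 3.1e-13), and Wfdc2, a secreted protease inhibitor, from 8.01, 7.38 and 7.64 to 8.77, 9.57 and 9.90 (1.74, SE 0.21, adjusted p = 7.6e-09). No arrays overlapped between the diets in these 3 genes. Nox4, an oxidase that makes hydrogen peroxide, rose by 1.56 (6.53, 5.46 and 5.90 against 8.30, 6.92 and 7.34, adjusted p = 0.0289), with a range of 1.16 to 1.86 over the omissions and no call without chow replicates 2 or 3 or atherogenic replicates 1 or 3.

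Among other falls, Dct, a tautomerase of melanin synthesis, went from 9.98, 9.85 and 10.04 to 7.85, 8.48 and 8.15 (-1.79, SE 0.30, adjusted p = 3.4e-05). Rdh11, a retinol dehydrogenase, went from 9.32, 9.68 and 10.27 to 7.60, 7.99 and 8.36 (-1.78, SE 0.30, adjusted p = 5.1e-05), and Aldoc, an aldolase, from 7.83, 8 and 7.83 to 6.61, 6.4 and 6.09 (-1.52, SE 0.18, adjusted p = 2.8e-09). Cela1, an elastase that is also an exocrine pancreas gene, fell from 9.95, 9.69 and 10.27 to 8.47, 8.78 and 8.70 (-1.32, SE 0.20, adjusted p = 3.8e-06). All 4 were apart between the diets. Clps, a defining pancreatic gene, was at 4.62 to 4.75 on chow and 4.26 to 4.57 on the atherogenic diet.

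Jun, a component of the transcription factor AP-1, passed (2.48, SE 0.62, adjusted p = 0.0212) although its arrays overlapped: 5.34, 6.14 and 4.79 on chow and 5.77, 9.11 and 8.83 on the atherogenic diet. Jun was named after its values were seen, as 1 of 8 called genes with overlapping arrays, and did not pass without chow replicate 1 (2.44), chow replicate 3 (2.16), atherogenic replicate 2 (1.87) or atherogenic replicate 3 (2.01). The plot of the leading genes gives each array for the 15 largest rises and for the 6 of the 15 largest falls that lie outside the cholesterol list.

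**Figure D2:**
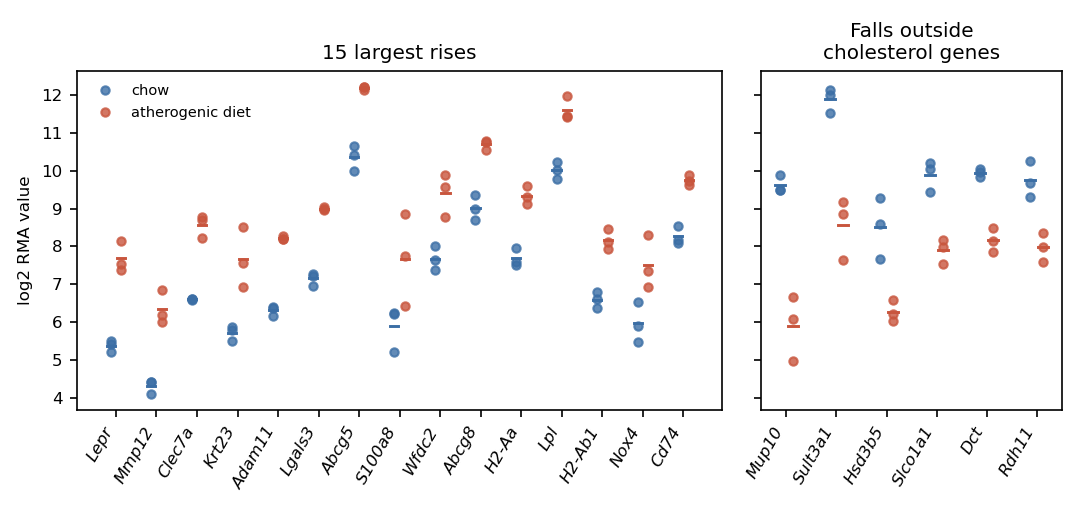
The log2 RMA values on the 3 chow (blue) and 3 atherogenic (red) arrays of C3H/HeJ females for the 15 genes with the largest rise and the 6 of the 15 largest falls outside the cholesterol list, with a bar at each mean. The groups do not overlap in any gene, as the rule for naming required, and the atherogenic arrays spread most in S100a8, Mup10, Sult3a1 and Krt23, in that order of SD.

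Detoxification genes changed in small numbers. Of 27 cytochrome P450 and flavin monooxygenase genes 1 rose and 2 fell, against 1.21% and 0.456% of all genes: Fmo5 (0.83, SE 0.17, adjusted p = 0.00121), Cyp2f2 as above, and Cyp1a2 (-0.61, SE 0.15, adjusted p = 0.0225). Of 26 NRF2 targets and glutathione transferases Gsta2 (1.18, SE 0.33, adjusted p = 0.0451) and Ephx1 (0.74, SE 0.17, adjusted p = 0.00939) rose, against 1.21% of all genes. These calls other than Cyp2f2 did not hold with every array left out. Fmo5 ended without chow replicate 1 (0.70 in a range up to 0.93), Cyp1a2 without chow replicates 1 or 3 or atherogenic replicate 3 (-0.67 to -0.50), Ephx1 without chow replicates 1 or 3 or atherogenic replicate 2 (0.62 to 0.86), and Gsta2 without any 1 of the 6 (1.01 to 1.33). Of 35 genes of oxidative phosphorylation and 17 of ribosomal proteins 0 passed in limma, with 1 higher and 0 lower, and 0 higher and 1 lower, at an unadjusted p under 0.05.

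The next question was whether C3H/HeJ females responded to the diet differently from the females of the other 9 strains. Over all 18193 genes the change in C3H/HeJ correlated with the mean change of those strains at r = 0.77 across genes, which are not independent replicates, and 12836 of the 18193 genes (70.6%) had the same sign, as had 300 of the 303 called genes. No arrays are shared by the 2 values, and they came from the same fit. The number of called genes in C3H/HeJ lay within the 86 (DBA/2J) to 4068 (A/J) of the other strains. The plot of list medians shows C3H/HeJ among the other strains for cholesterol synthesis (-1.75 to -0.60 in the others), LXR targets (0.53 to 1.37) and macrophage markers (0.04 to 1.60).

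**Figure D3:**
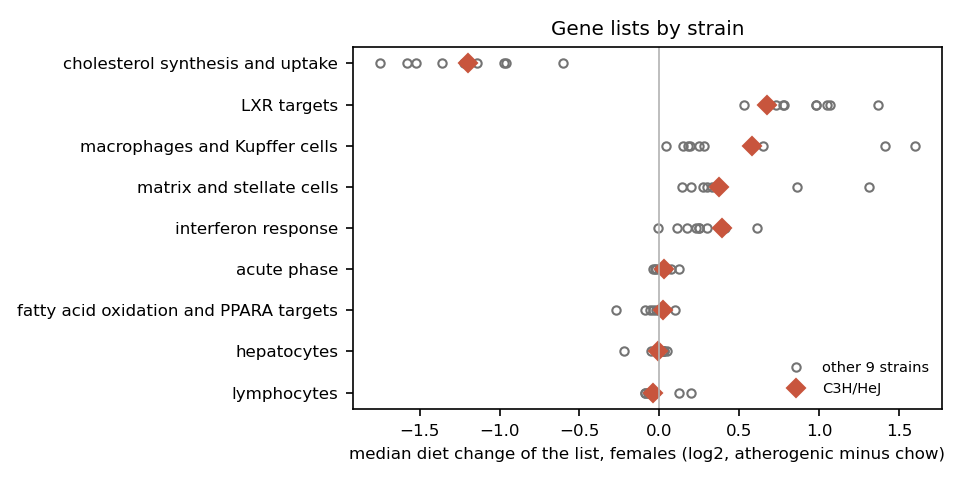
The median log2 diet change in females for 9 gene lists, with C3H/HeJ as a red diamond and each of the other 9 strains as an open circle. In C3H/HeJ the medians were -1.20 for cholesterol synthesis and uptake, 0.67 for LXR targets and 0.58 for macrophage markers, inside the range of the other strains in each of these lists.

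The difference itself passed the test for 4 genes (0.0220%), 3 with a higher and 1 (0.00550%) with a lower change in C3H/HeJ than the mean of the other strains, and 2 of the 4 (0.0110%) by at least 2-fold, and 781 genes (4.29%) reached an unadjusted p under 0.05. Fmn1, formin 1, an actin-nucleating protein, fell in C3H/HeJ from 6.16, 5.81 and 5.93 to 4.77, 4.78 and 5.05 (-1.10, SE 0.18), without overlap, whereas its change in the other strains ran from -0.66 (129S1/SvImJ) to 1.30 (A/J). The difference was -1.27 (SE 0.19, adjusted p = 2.4e-05) and held with each array left out. A second probe set of Fmn1 had a change of -0.31 that did not pass (SE 0.11, adjusted p = 0.163). In males of C3H/HeJ Fmn1 changed by -1.35, from 5.63 to 6.23 on chow to 4.48 to 4.67, and the sexes' difference did not pass (0.25, SE 0.25, adjusted p = 0.873).

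Cyp46a1, the enzyme that hydroxylates cholesterol at position 24, is best known from the brain. On chow it stood at 9.27, 9.55 and 9.39 in C3H/HeJ females, and no other strain's females averaged above 5.59 on chow or 5.73 on the atherogenic diet. In C3H/HeJ it rose to 10.16, 10.61 and 10.59 (1.05 or 2.07-fold, SE 0.16, adjusted p = 6.5e-06), without overlap, while the change in the other strains ran from -0.18 (BALB/cJ) to 0.43 (MRL/MpJ-Tnfrsf6lpr/J). The difference was 0.90 (SE 0.17, adjusted p = 0.00608), and it ended without chow replicate 1 (0.84), atherogenic replicate 2 (0.82) or atherogenic replicate 3 (0.83). In the other strains the gene was dim, and the change of a dim gene is understated on these arrays. The difference therefore cannot tell a larger response in C3H/HeJ from a level too low elsewhere to show one.

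Fhit, a dinucleotide hydrolase, rose from 6.31, 6.64 and 6.37 to 7.42, 7.63 and 7.69 (1.14, SE 0.18, adjusted p = 1.1e-05), against -0.24 (NZB/BINJ) to 0.94 (I/LnJ) in the other strains. The difference of 0.93 (SE 0.19, adjusted p = 0.0218) ended without chow replicate 1 (0.87), chow replicate 3 (0.90), atherogenic replicate 2 (0.91) or atherogenic replicate 3 (0.88), and also when 129S1/SvImJ (0.89) or NZB/BINJ (0.88) was left out of the mean. Tafa2, a secreted chemokine-like protein, did not pass in C3H/HeJ, where it was at 3.97, 4 and 3.83 against 4.09, 3.94 and 4 (0.08, SE 0.18, adjusted p = 0.944), but it had a mean change of -1.08 in the other strains, so the difference was 1.16 (SE 0.19, adjusted p = 6.7e-04). C3H/HeJ was not alone in its low level, since A/J, BALB/cJ and DBA/2J females averaged 3.91 to 3.98 on chow, and NZB/BINJ averaged 6.72. The C3H/HeJ values on chow already lay near the lowest on the arrays, where little fall can be measured. The difference therefore cannot tell a missing response from a level too low to fall. With the 60 female arrays fitted alone the difference of Tafa2 did not pass (adjusted p = 0.182).

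**Figure D4:**
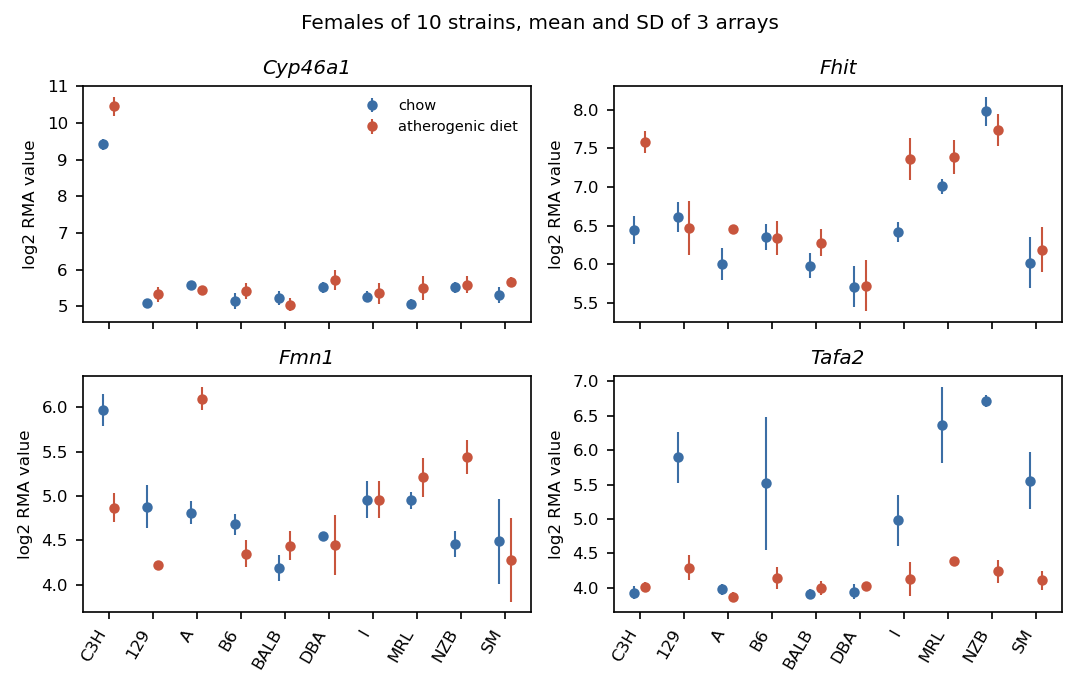
The log2 RMA level of Cyp46a1, Fhit, Fmn1 and Tafa2 in females of the 10 strains, named by the short strain labels of the samples, on chow (blue) and on the atherogenic diet (red), as mean and SD of 3 arrays. Cyp46a1 stands at 9.41 and 10.45 in C3H/HeJ and at 5.73 or below in the others, and Fmn1 on chow is highest in C3H/HeJ, at 5.97.

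The last comparison asked whether the diet change differed between the sexes of C3H/HeJ. In males 1143 genes passed, 726 higher and 417 lower. The difference between the sexes passed for 21 genes (0.115%), 7 with a higher (0.0385%) and 14 with a lower (0.0770%) change in females than in males, 17 of them (0.0934%) by at least 2-fold, and for 36 probe sets (0.0799%), and 1744 genes (9.59%) reached an unadjusted p under 0.05. After quantile normalization the 17 calls were 3 higher and 14 lower. With each of the 12 C3H/HeJ arrays left out in turn there were 10 to 34 calls: 10 without female chow replicate 1 or male atherogenic replicate 2, 12 without male chow replicate 1, 13 without female atherogenic replicate 3 and 34 without male atherogenic replicate 1.

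Several genes of macrophages rose less in females than in males. Gpnmb, a glycoprotein of lipid-loaded macrophages, was at 5.10, 5.57 and 5.33 against 5.79, 5.95 and 6.20 in females (0.65) and at 5.40, 5.37 and 5.65 against 8.90, 9.41 and 9.25 in males (3.71), a difference of -3.06 (SE 0.43, adjusted p = 2.0e-05). Chow levels of the sexes overlapped, and on the atherogenic diet all males lay above all females. Mmp12 rose by 2.04 in females and 5.03 in males (-2.99, SE 0.52, adjusted p = 7.9e-04), Lgals3 by 1.84 and 4.61 (-2.77, SE 0.50, adjusted p = 0.00166), and Clec7a by 1.98 and 4.47 (-2.50, SE 0.48, adjusted p = 0.00451). These 4 differences held with each of the 12 arrays left out. Abcg1 (1.36 in females and 2.64 in males), the lysozyme Lyz1 (0.85 and 2.62) and the scavenger receptor Cd68 (0.91 and 2.63) were also among the 14 lower calls and were named after their values were seen.

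For the whole list of 33 macrophage markers the median change was 0.58 in females and 1.07 in males, and the difference passed for 3 of the 33 (2 higher and 15 lower at an unadjusted p under 0.05). For the 28 matrix and stellate cell genes the medians were 0.37 and 0.85, and the difference passed for 1, Mmp12 (0 higher and 14 lower at an unadjusted p under 0.05). Cholesterol synthesis and uptake, with medians of -1.20 and -1.49, had 0 differences in limma (2 higher and 0 lower at an unadjusted p under 0.05).

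Other genes differed between the sexes too. Sult3a1, which fell by 3.33 in females, was at 3.73 to 4.10 in male arrays on chow and 3.84 to 3.94 on the atherogenic diet, with the male groups overlapping (-3.34, SE 0.56, adjusted p = 4.3e-04). The male values on chow already lay near the lowest on the arrays, where little fall can be measured, so this difference adds nothing to the fall in females. Obp2a, an odorant-binding lipocalin, was at 4.33, 4.45 and 4.50 against 4.26, 4.63 and 4.49 in females and rose in males from 5.08, 4.87 and 4.80 to 7.50, 8.81 and 10.16 (-3.87, SE 0.64, adjusted p = 4.2e-04). Rdh16, a retinol dehydrogenase, was at 8.54, 8.86 and 8.58 against 8.93, 8.84 and 9.07 in females and fell in males from 8.54, 8.10 and 8.23 to 7.12, 6.57 and 6.43 (1.88, SE 0.30, adjusted p = 2.3e-04). These 3 differences held with each array left out. Dio1, the hepatic deiodinase that activates thyroid hormone, fell in females (7.52, 8.23 and 5.58 against 5.83, 4.82 and 4.13, overlapping; -2.18, SE 0.37, adjusted p = 4.5e-05) and was at 4.93 to 5.64 against 4.33 to 6.74 in males. Its difference of -2.41 (adjusted p = 0.0201) ended in 8 of the 12 omissions (range -3.17 to -1.78): without chow replicates 1 or 2 or atherogenic replicates 2 or 3 of either sex.

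**Figure D5:**
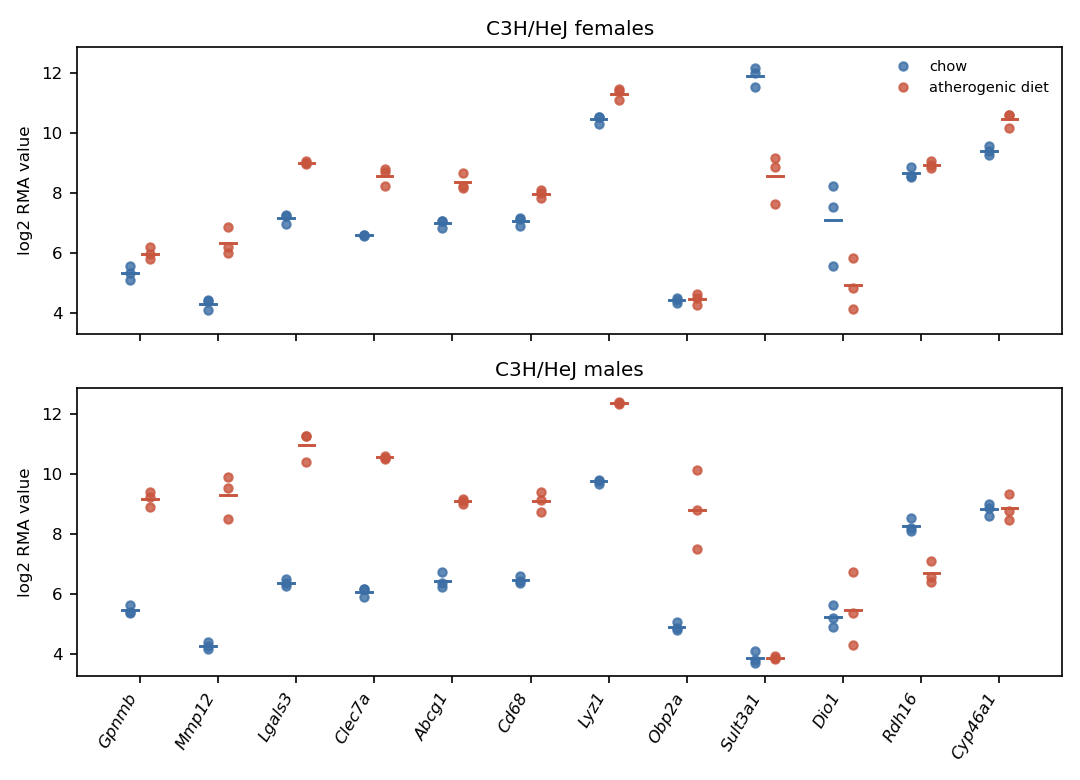
The log2 RMA values of 12 genes among the 21 whose diet change differed between the sexes, in C3H/HeJ females (upper panel) and males (lower panel), on chow (blue) and on the atherogenic diet (red), with a bar at the mean of 3 arrays. Gpnmb, Mmp12, Lgals3 and Clec7a rise further in males, Obp2a rises in males, and Sult3a1 falls in females and lies near 3.9 on all male arrays.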

How the data were processed

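Total RNA from mouse liver was hybridised to 1 array per animal, with 3 biological replicates per group per the labels. The deposited log2 values per probe set were made by the authors with RMA, which corrects the background, normalizes the arrays and summarises the probes, per the submitters' processing notes. No version is given in the sources used here. A single table held all 144 arrays, and control probe sets were left out. RMA compresses low signals, so a fold change of a dim gene is understated.

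Probe sets were named through the platform annotation and updated to RefSeq (GRCm38.p6) symbols. 34958 had 1 symbol, 932 had several and 9211 had none, and only the first kind was named. Where more than 1 probe set measured a gene, it was represented by that of highest mean value on the 120 arrays fitted.

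A linear model (limma 3.58.1 in R 4.3.3) with a mean for each of 40 groups was fitted to the 120 arrays of the 10 strains of the same age, and p-values were adjusted by Benjamini-Hochberg over 45037 probe sets. The contrasts were diet in C3H/HeJ females, its difference from the mean of the other 9 strains' females, and its difference from C3H/HeJ males. The SM/J males, whose diet labels are doubtful, entered only the spread. Scripts were tested on simulated data. Figures used Python 3.11.15 and matplotlib 3.10.9.

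Named genes were the 15 largest called rises and falls with arrays apart, the called genes of the differences (at most 10 and 8 each way), and members of 35 gene lists. The samples, lists and rules were chosen with earlier results of these data known. Alternatives were other normalizations, filters, sets of arrays, a replicate block and leaving out each array. Some list genes are not analysed here.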

Additional observations from a re-analysis of the deposited data

Results flagged for a closer look

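The diet change differed from that in the other 9 strains' females in 4 genes, by a test of the difference itself in limma. The differences (C3H/HeJ minus the other strains, log2) were 1.16 for Tafa2, 0.93 for Fhit, 0.90 for Cyp46a1 and -1.27 for Fmn1. Tafa2 lay near the lowest values in C3H/HeJ on chow, where little fall can be measured. Cyp46a1 was dim in the other strains, where a change is understated.

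The change differed between C3H/HeJ females and males in 21 genes by the same kind of test. Where females had the higher change, the difference was 1.88 for Rdh16, 1.26 for Rdh16f2, 1.01 for Cyp46a1, 0.94 for Pnliprp1, 0.90 for Trit1, 0.58 for Wdr3 and 0.46 for Numb. The calls of Rdh16f2, Cyp46a1, Wdr3 and Numb ended in 10, 8, 8 and 8 of the 12 omissions of 1 array, and those of Pnliprp1 and Trit1 in 2 each. Where females had the lower change, it was -3.87 for Obp2a, -3.34 for Sult3a1, -3.06 for Gpnmb, -2.99 for Mmp12, -2.77 for Lgals3, -2.50 for Clec7a, -2.41 for Dio1 and -2.09 for Atp6v0d2. The call of Atp6v0d2, a proton pump subunit, ended in 4 of the 12 omissions.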

How the results depend on the processing

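The 303 calls of the diet comparison became 891 with array quality weights (302 shared) and 139 at an adjusted p under 0.01. With each of the 6 arrays left out in turn they ranged from 133 to 230. The 4 strain differences became 10 with array quality weights and 2 among probe sets above the median probe set, and ranged from 2 to 5 over the omissions. The 21 sex differences became 134 with array quality weights, 120 with the 12 C3H/HeJ arrays alone and 10 at an adjusted p under 0.01, and ranged from 10 to 34 over the omissions. The causes were not tested. Some genes with small changes, among them Krt7, Krt19, Nr1h3, Abcb11, Nfkbia, Mup3 and Nr0b2, were not followed through the alternatives. None of the named genes that were followed changed direction under an alternative that was run. The split of the strain differences did, from 3 higher and 1 lower to 1 higher and 2 lower without chow replicate 1, and the median change of all genes, 0.002, was -0.004 after quantile normalization and -0.005 with the mean of a gene's probe sets. Other probe sets of a gene are not part of these alternatives except in that mean.

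Replicate numbers are shared between the diets. The deviations of same-numbered arrays from their group means correlated at 0.14, 0.13 and 0.02, against -0.15 to 0.07 for arrays with different numbers. These values do not settle whether the numbers pair animals. The labels do not state a pairing, so none was used in the main fit. With a replicate block there were 294 diet calls (260 shared), 4 strain differences and 17 sex differences (16 shared).

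Each group holds 3 arrays, so calls near the threshold rest on single animals, and a gene that missed the threshold was not shown to be unaffected. The time on the diet, and any batch of animals or hybridisations, are not given in the sources used here.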

Other observations

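Of 27 genes of endoplasmic reticulum stress 2 rose and 0 fell, against 1.21% and 0.456% of all genes, with a median of 0. At an unadjusted p under 0.05, 6 were higher and 0 lower, against 8.03% and 5.18% of all genes. Edem1, which directs misfolded glycoproteins to degradation, rose by 0.42 (limma adjusted p = 0.00465) and Ddit3, a stress transcription factor, by 0.55 (adjusted p = 0.0442). A second probe set of each did not pass. Edem1 ended without chow replicate 1, and Ddit3 without any array but atherogenic replicate 1. Of 19 genes of glucose metabolism 1 rose and 1 fell, against 1.21% and 0.456% of all genes. Aldoc fell, as given above. Pygl, the liver glycogen phosphorylase, rose by 0.43 (adjusted p = 0.0217), a call that ended without chow replicates 1 or 3 or atherogenic replicates 2 or 3. Pnliprp1, a pancreatic lipase relative, rose by 0.83 (adjusted p = 1.7e-05).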
